A study of Mus musculus with 6 samples.

Results

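Markers of the choroid plexus epithelium, namely the 10 genes Ttr, Kl, Folr1, Clic6, Aqp1, Kcnj13, Otx2, Enpp2, Sostdc1 and Slc4a5, were followed in RNA of isolated mouse microglia. The members were all probes whose RefSeq accession maps to one of these symbols, which gave 14 probes of 10 genes among 56605 probes that are not controls, of which 33767 could be named as 23462 genes. The RNA came from P2RY12-positive brain cells of mice labelled as male and aged 10 weeks with acute ischemic stroke (AIS), produced by a transient occlusion of the middle cerebral artery. Control littermates carried the floxed PGC-1α transgene, linked to eGFP, alone (PGC-1α f/f), and the mPGC-1α group carried it together with the tamoxifen-inducible Cx3cr1-Cre/ER driver, which acts in cells that express the fractalkine receptor Cx3cr1. Both groups received tamoxifen and underwent the occlusion, and each was measured on 3 single-color Agilent arrays. Nothing in the labels says that the 3 samples of a group were separate animals, so a p-value here measures the spread between these samples, which may be technical. The question was how much choroid plexus RNA each preparation held and whether it differed between the groups.

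The choroid plexus is a folded sheet of epithelium in the brain ventricles that secretes cerebrospinal fluid. Its cells are joined by tight junctions, carry ion transporters and water channels, and release carrier proteins such as transthyretin into the fluid. Microglia, the resident macrophages of the brain, are not known as a source of these epithelial transcripts, whereas Aqp1 is also made by some endothelial and red blood cells and Enpp2 by oligodendrocytes. In bulk RNA such as this, fewer cells of a type and less RNA per cell cannot be told apart.

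Levels are given as log2 intensity minus the 75th percentile of the same array, so that 0 is the brightness below which 75 percent of the probes of that array lie, and a difference of 1 is a 2-fold difference. Different probes bind with different strength, so levels are compared only between arrays for 1 probe. The arrays detected between 71.0% and 86.5% of spots well above background, the lowest values being those of the third array of each group, which lay together on a second slide. Xist and the Y-linked Ddx3y and Uty went against the male label on 5 of the 6 arrays, where Xist read -0.57 to -0.11 and Ddx3y and Uty were not well above background. The Y-linked Eif2s3y and Kdm5d were mixed. Eif2s3y probe A_55_P2846101 was well above background on control arrays 1 and 2, and Kdm5d probe A_55_P2731516 on all 6 arrays. Another Kdm5d probe was so on no array, and the remaining probe of each gene on control array 2 alone. Control array 2 was the only array that matched the label, with an Xist level of -4.83 and with Ddx3y and Uty well above background, and it thereby differed from all the others. In their levels over probes, control arrays 1 and 3 correlated at r = 0.976. Control array 2 correlated with these controls at 0.937 and 0.943, and with mPGC-1α arrays 1 to 3 at 0.954, 0.982 and 0.977. Member differences that move by over 1.5 times without control array 2 are given with and without it. The microglial genes P2ry12 (3.94 to 4.40) and Tmem119 (5.15 to 5.52) were bright on every array, and both probes of the targeted gene Ppargc1a gave a lower mean in the mPGC-1α group (differences of -0.31 ± 0.24 and -0.41 ± 0.27, SE, n = 3 per group, limma adjusted p = 0.798 and 0.769). Cx3cr1 probe A_52_P99810 differed by -1.23 ± 0.24 (SE, n = 3 per group, limma adjusted p = 0.684), and by -1.39 without control array 2 (limma adjusted p = 0.014). The other Cx3cr1 probe, A_55_P2007964, had 3 marked spots, overlapping groups and a difference of -0.33.

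Every choroid plexus probe was measured in every preparation: all 14 were well above background on all 6 arrays. By their brightest probe, 17541 of 23462 named genes were so as well, so this detection was not particular to the members. All 14 had a lower mean in the mPGC-1α group, by between 0.10 and 2.21 log2 units, but no probe passed the test. Of 11 probes of 8 genes that could be tested, 0 had an adjusted p below 0.05 with limma, and 3 had an unadjusted p below 0.05 together with at least a 2-fold difference. Across the array 0 of 40745 tested probes (0%) passed the adjusted threshold, 2922 had an unadjusted p below 0.05, and 3.06% were at least 2-fold lower in the mPGC-1α group with an unadjusted p below 0.05. The median difference over all tested probes was 0.08, on the higher side, and 39.9% of tested probes were lower.

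**Figure D1:**
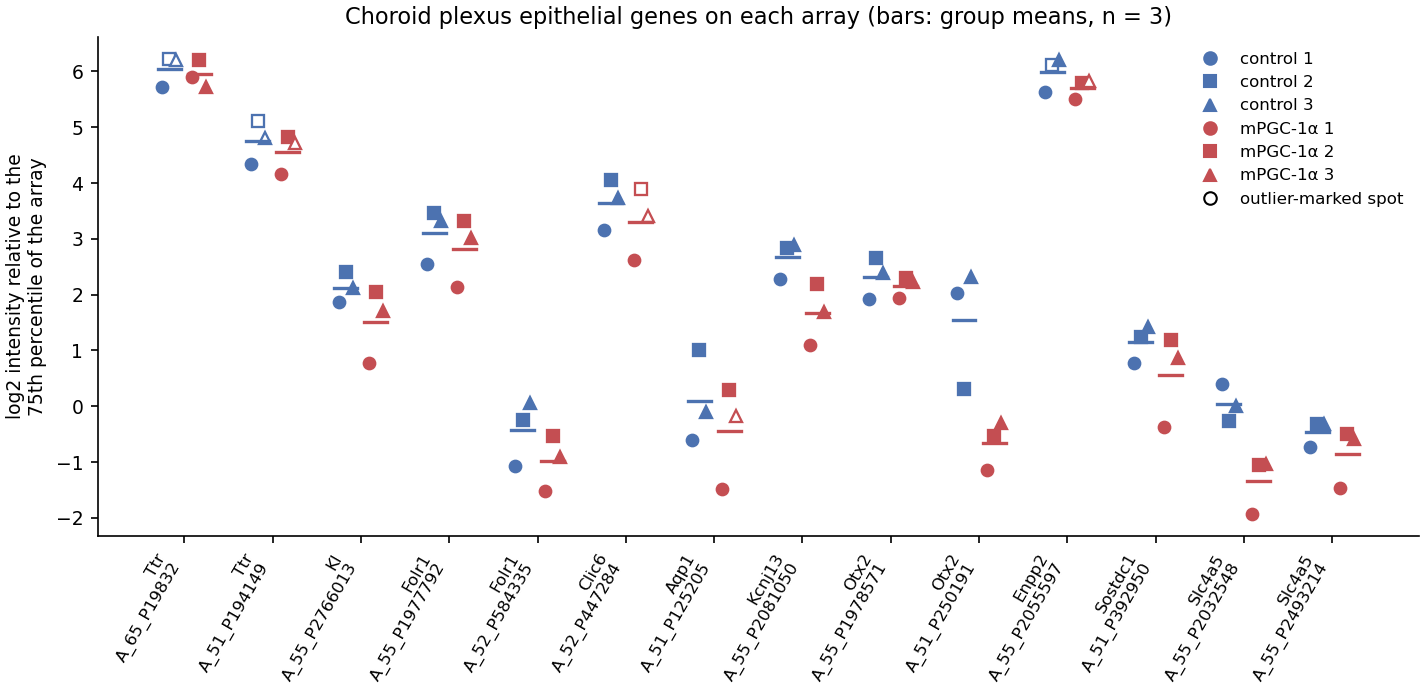
Level of each of the 14 member probes on the 6 arrays (vertical axis, log2 intensity relative to the 75th percentile of the array). Blue symbols are control arrays, red symbols mPGC-1α arrays, the shape gives the replicate number, open symbols are spots that the scanner software marked as outliers, and bars are means of 3 arrays. The red bar lies below the blue bar for all 14 probes, and the groups are fully separated for Kcnj13 and for 1 probe each of Otx2 and Slc4a5.

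Among the carrier and secreted proteins, Ttr encodes transthyretin, which carries thyroid hormone and retinol-binding protein. Its brighter probe (A_65_P19832) read 5.72, 6.21 and 6.21 on control arrays 1 to 3 and 5.90, 6.21 and 5.73 on mPGC-1α arrays 1 to 3. The dimmer probe (A_51_P194149) read 4.35, 5.10 and 4.81 in the controls and 4.16, 4.82 and 4.71 in the mPGC-1α group. The groups overlapped on both probes. Control spots 2 and 3 of both probes, and mPGC-1α spot 3 of the dimmer one, were marked as outliers by the scanner software, so Ttr entered no main test. With those spots kept the differences were -0.10 ± 0.20 and -0.19 ± 0.25 (SE, n = 3 per group, limma adjusted p = 0.918 and 0.871). Without control array 2 they were -0.02 on both probes.

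Enpp2 encodes autotaxin, a secreted enzyme that makes lysophosphatidic acid. It read 5.63, 6.11 and 6.20 in the controls and 5.51, 5.79 and 5.83 in the mPGC-1α group. Control spot 2 and mPGC-1α spot 3 were marked, and over the remaining 2 arrays per group the difference was -0.27 ± 0.26 (SE, limma adjusted p = 0.840). The levels of the groups overlapped. After quantile normalization the difference of Enpp2 was -0.67 ± 0.11 (SE, limma adjusted p = 0.746), with normexp background correction -0.63, and in the authors' value table -0.54, so that its size depended on the scaling. The Enpp2 probe varied little between preparations, with a range of 0.69 log2 units over the 6 arrays. Among the members only the brighter Ttr probe had a narrower one (0.49). These were also the brightest member probes, and the dimmer Ttr probe had a wider range (0.95). Whether brightness narrowed the range was not tested.

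Sostdc1, a secreted antagonist of BMP and Wnt signalling, read 0.78, 1.25 and 1.43 in the controls and -0.38, 1.19 and 0.86 in the mPGC-1α group. Its mean difference was -0.59 ± 0.38 (SE, n = 3 per group, limma adjusted p = 0.767). mPGC-1α array 1 alone lay below all controls, mPGC-1α arrays 2 and 3 lying within their range, and without that array the difference was -0.13.

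Kl encodes Klotho, a membrane coreceptor for FGF23 with a shed extracellular form. It read 1.86, 2.41 and 2.12 in the controls and 0.78, 2.05 and 1.72 in the mPGC-1α group, a difference of -0.61 ± 0.32 (SE, n = 3 per group, limma adjusted p = 0.722). mPGC-1α array 2 was above control array 1, so that the groups overlapped. Without mPGC-1α array 1 the Kl difference was -0.25.

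Folr1, the folate receptor that carries folate across the epithelium, has a pair of probes. The brighter (A_55_P1977792) read 2.55, 3.46 and 3.32 in the controls and 2.13, 3.32 and 3.02 in the mPGC-1α group, and the dimmer (A_52_P584335) -1.06, -0.25 and 0.05 against -1.51, -0.53 and -0.91. The differences were -0.29 ± 0.34 and -0.56 ± 0.35 (SE, n = 3 per group, limma adjusted p = 0.869 and 0.763). Control array 1 lay inside the range of the mPGC-1α arrays on both probes. The gap between the probes stayed within 0.66 log2 units over the 6 arrays. Without mPGC-1α array 1 the Folr1 differences were 0.06 and -0.30, and without control array 2 they were -0.11 and -0.48.

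Among the channels and transporters, Kcnj13 encodes Kir7.1, an inwardly rectifying potassium channel of the apical membrane. It read 2.29, 2.84 and 2.89 in the controls and 1.11, 2.20 and 1.69 in the mPGC-1α group. All 3 mPGC-1α arrays lay below all 3 controls, mPGC-1α array 2 by the least. The group means were 2.67 ± 0.33 and 1.66 ± 0.55 (SD, n = 3 each), a 2.01-fold lower intensity in the mPGC-1α group, and the log2 difference was -1.01 ± 0.30 (SE, limma adjusted p = 0.684). The exact two-sided permutation p was 0.1, and a design of 3 against 3 arrays can reach no lower value. The difference was -0.91 on the first slide and -1.20 on the second. Without control array 2 it was -0.93.

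Slc4a5, an electrogenic sodium bicarbonate cotransporter of the apical membrane, was read by a pair of probes that moved unequally. Probe A_55_P2032548 read 0.39, -0.26 and 0.01 in the controls and -1.92, -1.04 and -1.04 in the mPGC-1α group, with no overlap. Its difference was -1.38 ± 0.31 (SE, n = 3 per group, limma p = 0.0014, adjusted p = 0.684, exact permutation p = 0.1), a 2.61-fold lower intensity, with -1.55 on the first slide and -1.05 on the second. Probe A_55_P2493214, assigned to the same transcript accession, read -0.73, -0.31 and -0.31 against -1.47, -0.49 and -0.59. Its groups overlapped, and its difference was -0.40 ± 0.30 (SE, n = 3 per group, limma adjusted p = 0.793), or -0.09 without mPGC-1α array 1.

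Otx2, the homeodomain transcription factor that specifies the choroid plexus, showed the widest disagreement between probes. Probe A_55_P1978571 read 1.92, 2.66 and 2.39 in the controls and 1.93, 2.30 and 2.23 in the mPGC-1α group, and the groups overlapped (difference -0.17 ± 0.23, SE, n = 3 per group, limma adjusted p = 0.894, and 0.0014 without control array 2). Probe A_51_P250191 read 2.04, 0.31 and 2.31 in the controls and -1.14, -0.54 and -0.29 in the mPGC-1α group. All 3 controls lay above all 3 mPGC-1α arrays, but control array 2 lay nearer to the mPGC-1α arrays than to the other controls. The difference on this probe was -2.21 ± 0.48 (SE, n = 3 per group, limma p = 0.0012, adjusted p = 0.684, exact permutation p = 0.1), a 4.62-fold lower intensity, with -2.01 on the first slide and -2.60 on the second. The probes carry different transcript accessions, so they may read different transcripts of the gene, which was not tested.

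Without control array 2, 140 probes of the whole array were called higher and 1962 lower at an adjusted p below 0.05, against 0 with it, and both of these steeper probes were among those lower. Otx2 probe A_51_P250191 then differed by -2.83 (limma adjusted p = 0.0012) and Slc4a5 probe A_55_P2032548 by -1.54 (limma adjusted p = 0.031). No other member probe was called in that setting. Over all alternatives tried, the adjusted p of the Otx2 probe ranged from 0.0012 to 1.00 and that of the Slc4a5 probe from 0.031 to 1.00.

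**Figure D2:**
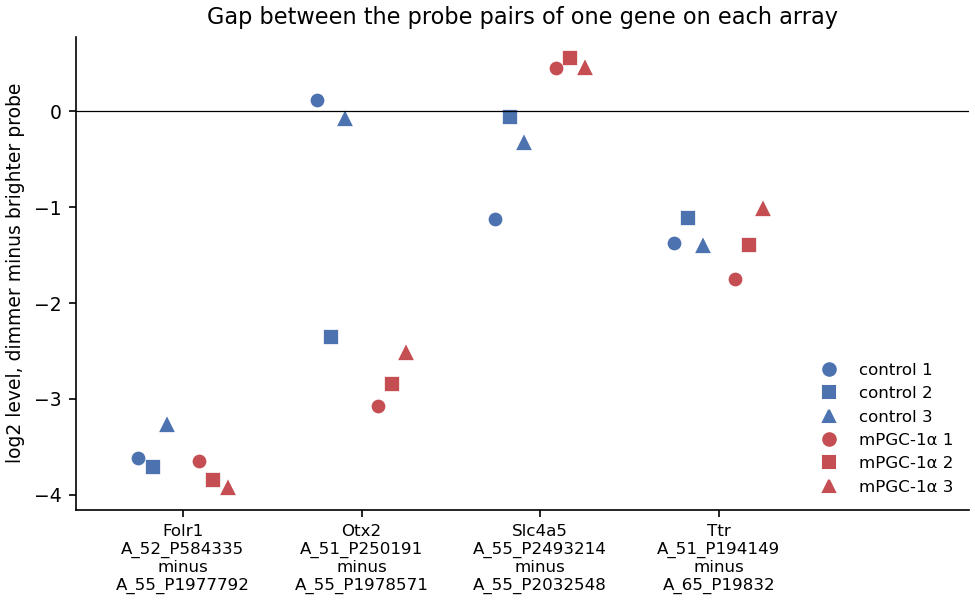
Gap between the probes of 1 gene on each array (vertical axis, log2 level of the dimmer minus the brighter probe), for the 4 members with a pair of probes. Colors and shapes give the group and the replicate number. Only the spread of a gap over arrays can be read, because probes differ in brightness. For Folr1 and Ttr the gap spans 0.66 and 0.73 log2 units, for Slc4a5 1.68 and for Otx2 3.19.

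The gap between the Otx2 probes, dimmer minus brighter, was 0.12, -2.35 and -0.08 in the controls and -3.07, -2.84 and -2.52 in the mPGC-1α group. Thus control array 2 was close to the mPGC-1α arrays in this ratio. The gap between the Slc4a5 probes was -1.12, -0.06 and -0.32 in the controls and 0.45, 0.55 and 0.45 in the mPGC-1α group, with no overlap. A ratio of this kind shows that the probes changed unequally and not which of them followed the gene.

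Clic6, a chloride intracellular channel protein, read 3.15, 4.06 and 3.73 in the controls and 2.62, 3.89 and 3.41 in the mPGC-1α group. mPGC-1α spots 2 and 3 were marked, so it was not tested, and with them kept the difference was -0.34 ± 0.34 (SE, n = 3 per group, limma adjusted p = 0.830), or 0.0038 when mPGC-1α array 1 was left out and -0.14 when control array 2 was. Aqp1, the apical water channel, read -0.60, 1.01 and -0.10 in the controls and -1.47, 0.30 and -0.17 in the mPGC-1α group, of which the last was marked. Its difference over 3 controls and 2 mPGC-1α arrays was -0.69 ± 0.59 (SE, limma adjusted p = 0.812), and -0.24 without control array 2. The erythrocyte genes, a list of red blood cell markers, had their highest mean level on the same arrays as Aqp1, control array 2 (4.18) and mPGC-1α array 2 (3.95), against 2.00 to 3.16 on the others, and their part in the Aqp1 level was not tested. Clic6 and the dimmer Ttr probe were highest on these arrays as well, so this order was not particular to Aqp1. Aqp1 was the member that varied most within the controls after the steeper Otx2 probe (SD of 0.82 against 1.09, n = 3), and both groups overlapped for Clic6 and for Aqp1.

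For the genes with a non-overlapping probe, the sequences upstream of the start are shown, since these members share the tissue in which Otx2 acts. RefSeq windows on GRCm38.p6 were used for Kcnj13, Kl, Aqp1, Slc4a5 and Otx2, 8 windows of 5 genes, and Ttr, Folr1, Clic6, Enpp2 and Sostdc1 were not analysed here in this respect. The 250 bases before each start were searched on both strands for TAATCC, the core site bound by Otx2, whose reverse complement is GGATTA. Capitals mark the match, and each window is printed 5′ to 3′ on the strand of its gene. The Kcnj13 window lies at chr1:87394730-87394979 on the minus strand, the Slc4a5 window at chr6:83237125-83237374 on the plus strand, and the 1 of 4 Otx2 windows that held a match at chr14:48665110-48665359 on the minus strand.
Kcnj13: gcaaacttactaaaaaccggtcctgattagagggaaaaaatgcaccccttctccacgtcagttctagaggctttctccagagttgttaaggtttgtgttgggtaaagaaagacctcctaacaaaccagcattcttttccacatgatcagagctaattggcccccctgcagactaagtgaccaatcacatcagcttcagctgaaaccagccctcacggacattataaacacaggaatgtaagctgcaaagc
Slc4a5: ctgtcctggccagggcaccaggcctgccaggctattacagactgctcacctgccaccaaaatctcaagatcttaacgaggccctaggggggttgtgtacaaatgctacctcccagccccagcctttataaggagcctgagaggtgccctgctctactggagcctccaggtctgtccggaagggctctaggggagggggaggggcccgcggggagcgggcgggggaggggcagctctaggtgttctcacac
Otx2: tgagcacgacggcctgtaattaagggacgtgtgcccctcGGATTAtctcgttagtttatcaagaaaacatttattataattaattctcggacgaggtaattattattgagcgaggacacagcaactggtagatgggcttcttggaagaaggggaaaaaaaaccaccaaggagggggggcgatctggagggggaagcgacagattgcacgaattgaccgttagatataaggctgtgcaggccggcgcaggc
This Otx2 window held 1 match, which begins 211 bases before the start, and the other 7 member windows, 3 of Otx2 among them, held none. The letters occurred in 6.25% of all 32851 RefSeq windows. A missing match says only that these letters are not in the window.

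Across arrays the members kept a shared order. Of 14 probes, 12 were lowest on mPGC-1α array 1, while 10.7% of all probes with 6 unmarked values were lowest on that array. The highest value lay on control array 2 or control array 3 for 13 probes, and control array 1 lay below both of them for 12. The share of all probes with that order among the controls was not counted. The mean level over all 23462 named genes was also lowest of the 6 arrays on control array 1 (-2.02) and highest on control array 2 (-1.69). It was -1.84 on control array 3, so this part of the order was not particular to the members. The range over the 6 arrays had a median of 1.50 log2 units over the member probes and 0.93 over all probes with 6 unmarked values, of which 18.8% had a range at least as wide as that of the members. When arrays with the same replicate number were set side by side, 12 of 14 member probes were lower in the mPGC-1α array of all 3 pairs, the exceptions being the brighter Ttr probe and Otx2 probe A_55_P1978571, each by the first pair. Among probes with 6 unmarked values this held for 8 of 9 member probes and for 13.7% of all probes. The groups did not overlap for 3 of those 9 member probes, all lower in the mPGC-1α group. Of all probes, 4.66% were lower without overlap, 1724 probes against 2515 that were higher without overlap. Without control array 1 the groups of 2 and 3 arrays did not overlap for 9 of 9 member probes, all lower in the mPGC-1α group. In that setting 8.95% of all probes were lower without overlap.

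**Figure D3:**
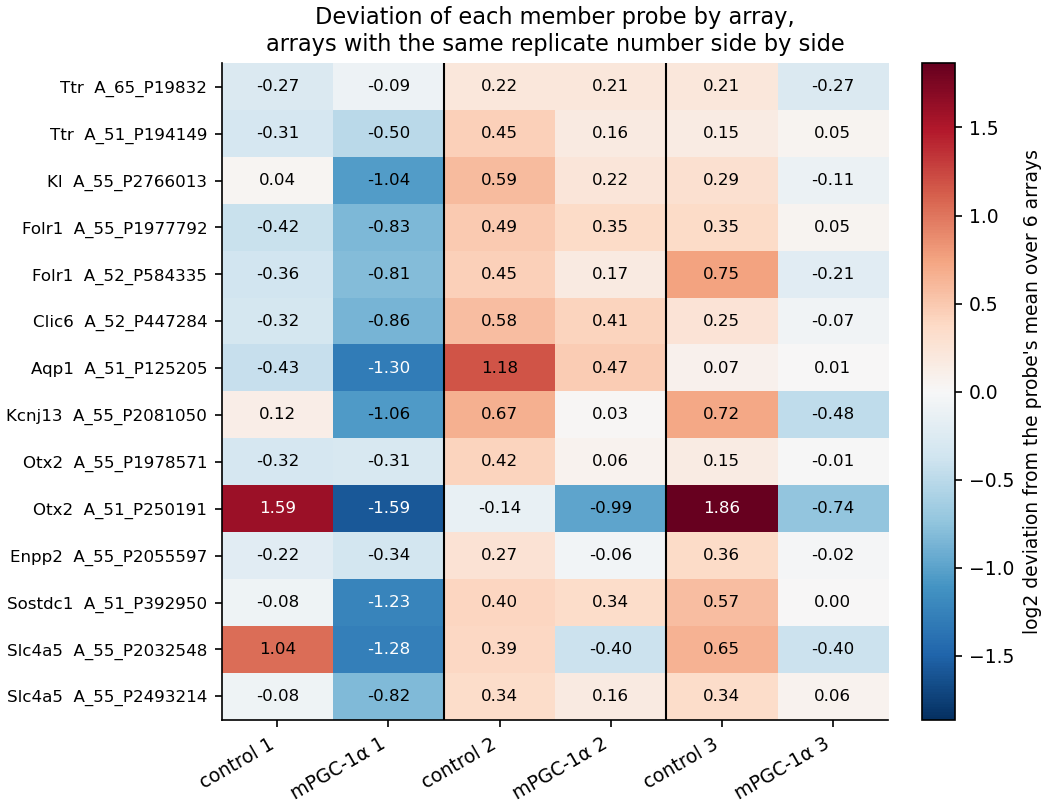
Deviation of each member probe from its mean over the 6 arrays (color and printed value, log2 units), with arrays of the same replicate number next to each other. mPGC-1α array 1 is blue for all 14 probes and control array 3 is red for all 14, and the first pair is lower than the second for most probes of both groups.

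The mean level of the 10 genes, taking the brighter probe of each and all spots, was 2.37, 2.97 and 2.82 on control arrays 1 to 3 and 1.62, 2.62 and 2.33 on mPGC-1α arrays 1 to 3. The lowest preparation was thus mPGC-1α array 1 and the highest control array 2, and control array 1 lay within the range of the mPGC-1α arrays. Group means were 2.72 ± 0.31 and 2.19 ± 0.51 (SD, n = 3 each), a difference of -0.53. The difference was -0.67 over the 6 genes without a marked spot and -0.56 without Enpp2 and Aqp1. Leaving out control array 2 gave -0.41. Leaving out mPGC-1α array 1, the lowest of the 6, gave -0.25.

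**Figure D4:**
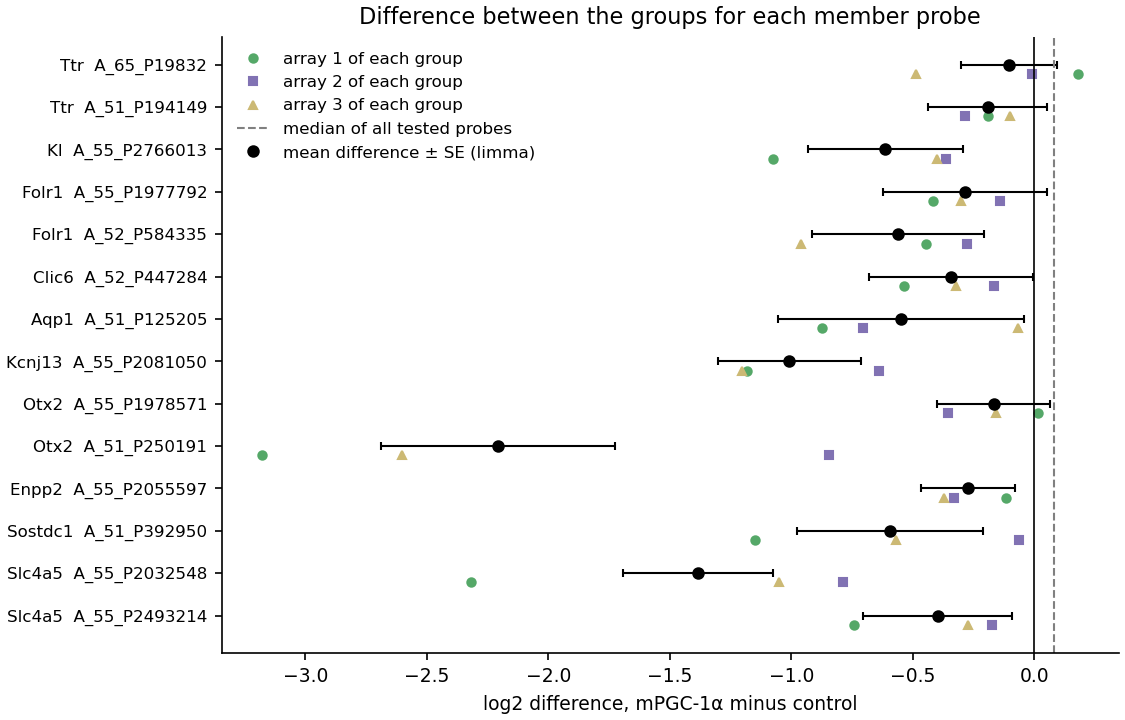
Difference between the groups for each member probe (horizontal axis, log2 units, mPGC-1α minus control). Black points are the means with the standard error from limma, outlier-marked spots kept, and colored symbols are the differences between arrays of the same replicate number. All 14 means lie left of 0, from -2.21 to -0.10, and the dashed line is the median of all tested probes at 0.08.

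The correlation of a member with the mean of the other members over the 6 arrays, a description in which all values share arrays and scaling, was 0.98 for Kl, 0.96 for Slc4a5 probe A_55_P2493214, 0.95 for Sostdc1 and 0.94 for Clic6. It was 0.93 for Kcnj13, 0.92 for both Folr1 probes and 0.88 for Aqp1. The lowest values were those of the brighter Ttr probe (0.59), Slc4a5 probe A_55_P2032548 (0.58) and Otx2 probe A_51_P250191 (0.53). The dimmer Ttr probe had 0.90. The pair of probes with the largest group differences were therefore also those whose pattern over the arrays was least like that of the other members.

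Other genes of the same epithelium were read from a list of 30, of which 29 had a probe. All 29 were well above background on all 6 arrays, a state common among named genes (17541 of 23462). The list was chosen with earlier results of these data known, so its counts are a description and no independent test of the members. In the mPGC-1α group 27 had a lower mean and 2 a higher mean, Trpv4 (0.10) and Col8a1 (0.25). With limma 7 had an unadjusted p below 0.05 and 0 an adjusted p below 0.05. The median difference of the 29 genes was -0.61, against 0.11 over all 18222 named genes tested, of which 11672 were higher and 6550 lower. Of 26 genes with 6 unmarked values, 5 did not overlap between groups, all lower, against 558 of 16175 named genes (3.45%) that were lower without overlap. Those at least 2-fold lower were Cab39l, which encodes a scaffold of the LKB1 kinase (-1.53 ± 0.37, SE), Cldn2, a pore-forming claudin of the tight junction (-1.32 ± 0.37), Car12, a membrane carbonic anhydrase (-1.24 ± 0.36), and Slco1a5, an organic anion transporter (-1.20 ± 0.35), each with n = 3 per group and a limma adjusted p of 0.684. Cab39l read 1.83, 0.83 and 2.40 in the controls and -0.15, 0.18 and 0.44 in the mPGC-1α group, so that control array 2 was again the nearest to the mPGC-1α arrays. Without that array Cab39l differed by -1.96 (limma adjusted p = 0.0042). Without mPGC-1α array 1 the median difference of the list was -0.36.

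Genes of the ion pumps and cotransporters that drive cerebrospinal fluid secretion, many of which other brain cells also express, were split: 6 of 15 tested were higher and 9 lower, with a median of -0.04, or 0.17 without control array 2. Slc4a10, a sodium-dependent bicarbonate transporter, had a difference of -0.93 ± 0.38 (SE, limma adjusted p = 0.688), and Atp1b2, a sodium pump subunit that glia also make, one of 0.75 ± 0.27 (SE, limma adjusted p = 0.684). Kcna1, a voltage-gated potassium channel also found in neurons, differed by 2.11 ± 0.55 (SE, limma adjusted p = 0.684) and was well above background on 5 arrays. Its levels were low, -5.65 to -3.39 in the controls and -2.93 to -1.79 in the mPGC-1α group. With normexp background correction the difference was 1.13. Without control array 2 it was 2.66 (limma adjusted p = 0.015), and no other fit that left out 1 array called it.

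**Figure D5:**
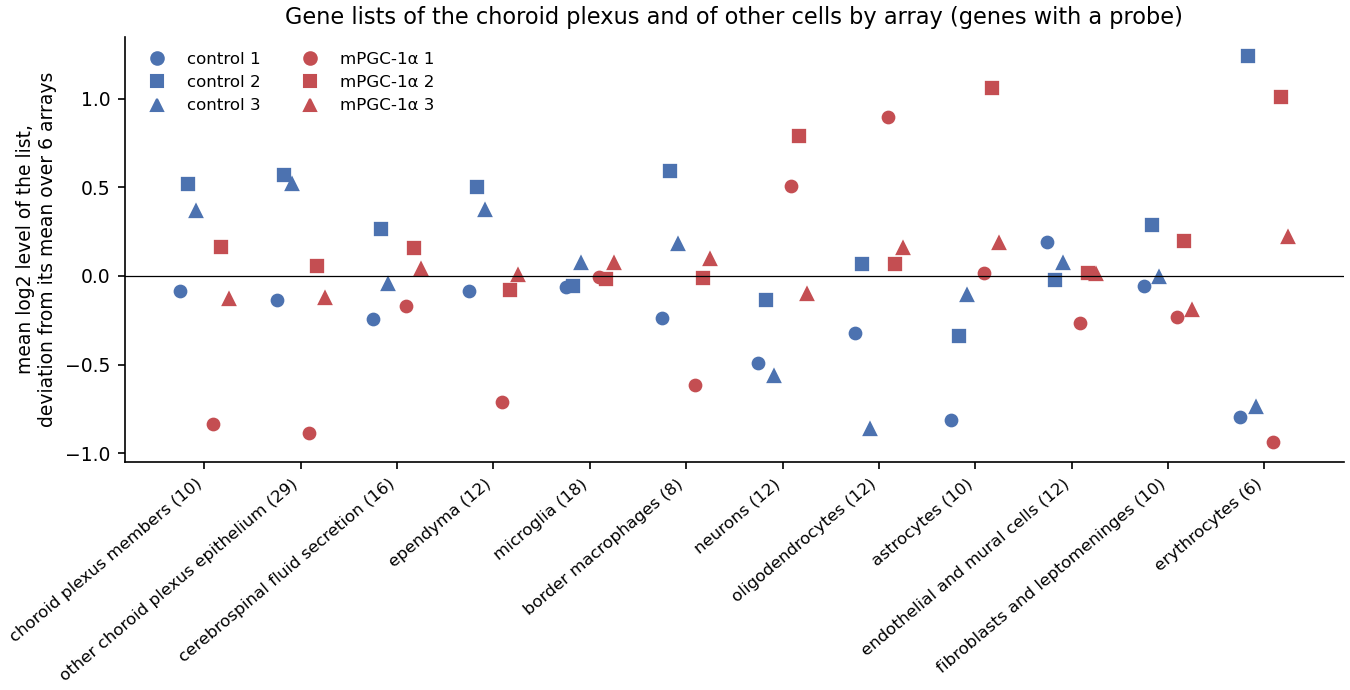
Mean log2 level of each gene list on each array, as the deviation from the mean of the list over the 6 arrays (vertical axis, log2 units), with all spots kept and the number of genes with a probe in brackets. Both choroid plexus lists and the ependymal list are lowest on mPGC-1α array 1 and highest on control array 2. The border macrophage list, the fibroblast and leptomeningeal list and the erythrocyte list share these lowest and highest arrays. The microglial list differs little between arrays.

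Markers of other cells also differed in mean level between the groups, none past the adjusted threshold. Ependymal genes, of the ciliated cells that line the ventricles, had a median difference of -0.65, with 7 of 11 tested lower, and the median was -0.24 when control array 2 was left out and -0.27 when mPGC-1α array 1 was. Their summed linear level was 15.1 to 31.5 in the controls and 12.6 to 19.0 in the mPGC-1α group, 10 of 12 being well above background on all arrays and Tmem212 on none. Border macrophage genes had a median of -0.35 with 7 of 8 lower (-0.16, -0.53 and -0.55 when control array 2, control array 1 or mPGC-1α array 3, respectively, was left out), and summed levels of 10.3 to 18.6 and 7.93 to 14.2. Neuronal genes (median 0.86, 11 of 12 higher), oligodendrocyte genes (0.74, 11 of 12 higher) and astrocyte genes (0.97, 9 of 9 higher) had the opposite sign. Without mPGC-1α array 2 the astrocyte median was 0.52, and without mPGC-1α array 1 the oligodendrocyte median was 0.44. Endothelial and mural cell genes had a median of 0.09 (6 of 9 higher), fibroblast and leptomeningeal genes of -0.04 (5 of 9 lower) and erythrocyte genes of 0.26 (4 of 6 higher). The summed microglial level was 532 to 619 in the controls and 643 to 662 in the mPGC-1α group. That of the 10 choroid plexus genes was 133 to 195 and 125 to 171. Over all named genes the sum was 51289 to 66124 and 64715 to 69082, so a higher sum was not particular to microglial genes. A sum of this kind follows its brightest probes, which among the members are those of Ttr and Enpp2, both with marked spots. Bright microglial probes, those of Ctss, P2ry12 and Tmem119 among them, also had marked spots. Because probes bind with different strength, sums cannot be compared between lists. The part of these other cells in the choroid plexus difference was not tested.

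The genes whose pattern was most like the mean of the 6 members without a marked spot, among 16994 named genes, were St6galnac2 (r = 0.993 over 6 arrays), Prss57, Zadh2 and Col8a2 (0.991 each), Abca4 (0.990), Paqr5, Bdh1, Depdc1a, Ccnf and Parva (0.986 to 0.989). The mean stood in for Ttr, whose brighter probe had marked spots. St6galnac2 read -0.45, 0.00 and -0.01 in the controls and -1.34, -0.38 and -0.48 in the mPGC-1α group, and Abca4, the one gene of the other choroid plexus list among these 10, 1.31, 2.00 and 1.97 against 0.34, 1.46 and 1.27. An r of at least 0.9 was reached by 308 genes (1.81%) and by 15 of 27 genes of the other choroid plexus list, whose median r was 0.91. With 6 arrays the order of the leading genes is not firm: after quantile normalization 3 of the 10 were again among the leading 10. By Spearman correlation 56 genes were tied at the highest value, so that no leading 10 can be named.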

How the data were processed

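Microglial RNA was labelled (the labels name Cy3 in one field and Cy5 in another) and hybridised to Agilent mouse 8x60K v2 arrays. The authors deposited scanner files with processed intensity values (Feature Extraction 11.5.1.1, background-subtracted per the file headers) and a value table of log2 values normalized in GeneSpring; the latter served as an alternative. Spots of a probe were averaged, log2 was taken and the 75th percentile over all 56605 probes of the array was subtracted. Spots that the scanner software had marked as outliers, either non-uniform or unlike their copies (549 to 4931 per array, mostly bright) were kept in the percentile and left out of tests. To be tested, a probe needed unmarked spots on at least 2 arrays per group and a signal well above background on each such array of at least 1 group. limma 3.58.1 (R 4.3.3; lmFit and eBayes with intensity trend, Benjamini-Hochberg over 40745 probes) compared the groups. The number of arrays limits the precision. On simulated data with 50 probes per size, the fit called 37 at a log2 change of -3 and 1 at -1. The simulated noise was drawn independently for each probe and array. It thus had neither a distinct control array 2 nor a shared deviation of same-number arrays, and these counts do not give the power on the real arrays. Probes were named through RefSeq accessions (59.7% matched). Same-number arrays deviated together (r = 0.17 to 0.25 over 36995 probes, against -0.34 to 0.03 for other pairs), so the replicate number was tried as a block. With the block, adjusted p was 0.133 for Kcnj13, 0.133 for Otx2 probe A_51_P250191 and 0.136 for Slc4a5 probe A_55_P2032548. The planned rule named genes of other lists that were at least 2-fold different without overlap, at most 6 per list. It was followed for the other choroid plexus and fluid secretion lists. Genes of the remaining lists that met it are not named, apart from Cx3cr1. Trpv4, Col8a1, Slc4a10, Atp1b2 and Tmem212 were named outside the rule. The members and lists were chosen with earlier results of these data known.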

Additional observations from a re-analysis of the deposited data

How the results depend on the processing

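Under the alternatives tried, 9 to 14 member probes could be tested and each had a lower mean in the mPGC-1α group, except 1 tested probe under each of 3 settings. The sign changed for Enpp2 with the slide as a block (0.021), for Otx2 probe A_55_P1978571 without control array 2 (range -0.37 to 0.0014 when 1 array was left out) and for Folr1 probe A_55_P1977792 without mPGC-1α array 1 (range -0.57 to 0.059). With all spots kept, values just above 0 were also reached by Ttr probe A_65_P19832 without mPGC-1α array 3 (0.0052), and without mPGC-1α array 1 by Ttr probe A_51_P194149 (0.010) and Clic6 (0.0038). With the replicate block 0 member probes and 1 of all probes were called, lower; the block with marked spots kept also called 1, and changed no other call. Quantile normalization with marked spots kept gave 5 member probes of 14 that were lower without overlap (3.67% of all probes), against 3 of 9 (4.66%). Median differences of 2 lists changed sign on other scales: microglia -0.029 by quantile normalization, -0.030 by normexp, -0.024 in the authors' table, -0.029 with the block and quantile normalization and -0.043 with quantile normalization and marked spots kept; endothelial and mural cells -0.079, -0.052, -0.078, -0.079 and -0.079 in the same order. Quantile normalization shared 3 of the 10 most similar genes; the Spearman count, 1, has no meaning, since 56 genes tie at the highest value.

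Leaving out 1 array at a time, 0 to 2 member probes and 0 to 2 member genes were called, and 0 to 140 probes of all were called higher and 0 to 1962 lower, all of the calls without control array 2. Member probes that were lower in the mPGC-1α group without overlap numbered 3 to 9, and 5.77% to 15.6% of all probes were lower without overlap. List medians ranged from -0.21 to 0.17 for fluid secretion, -0.99 to -0.24 for ependyma and 0.0058 to 0.22 for microglia. They ranged from -0.014 to 0.21 for endothelial and mural cells and -0.38 to 0.28 for fibroblasts and leptomeninges. Further ranges were -0.55 to -0.16 for border macrophages, 0.52 to 1.24 for astrocytes, 0.44 to 0.97 for oligodendrocytes and -0.27 to 0.94 for erythrocytes. For the members the median covers tested genes only, without Ttr and Clic6, and it ranged from -0.89 to -0.19. With all 6 arrays it was -0.60 over the 8 tested genes. Over the brightest probes of all 10 genes, marked spots kept, it was -0.45. The percentile taken over unmarked probes alone was chosen after seeing the data, as were the 3 combined settings; it moved the mean member difference to -0.46. The cause of these changes was not tested.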
